A study of Homo sapiens with 6 samples.

Results

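BRG1 and SMARCC2 peaks were compared with each other within LNCaP cells, where each protein was mapped by chromatin immunoprecipitation and sequencing (ChIP-seq) in 1 library. A peak is a stretch of the genome in which tags from the immunoprecipitated DNA piled up above background. A peak was called co-occupied when it shared at least 1 base pair with a peak of the other protein, and BRG1-alone or SMARCC2-alone otherwise. The 2 LNCaP lists held 61880 peaks of the 153803 peaks in all 4 lists of the study. The BRG1 list held 36174 peaks and the SMARCC2 list held 25706.

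LNCaP is an established human prostate adenocarcinoma line that responds to androgen. The cells grew in RPMI medium with 10% fetal bovine serum and 1% penicillin and streptomycin, with no enzalutamide named for them. The study's other line is MR49F, derived from LNCaP, resistant to the antiandrogen enzalutamide and kept in 10 µM of it. The MR49F peak lists, which took no part in forming the LNCaP classes, were used here as an outside readout. Chromatin of all samples was fixed with 2 mM disuccinimidyl glutarate for 45 minutes and then with 1% formaldehyde for 10 minutes, and each precipitation took 4 µg of antibody. With 1 library for each antibody and line there was no replicate, so no p-value is given, and intervals cover counting error only. A difference between the lists can come from the protein, the antibody or the library, and these cannot be told apart.

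BRG1, encoded by SMARCA4, is an ATPase that drives the SWI/SNF (BAF) chromatin remodelling complexes, which slide or eject nucleosomes and so open DNA to transcription factors. SMARCC2 (BAF170) is a core scaffold subunit of the same complexes, around which the other subunits assemble together with its paralog SMARCC1. BRG1 or its paralog SMARCA2 is the motor of every form of the complex. In prostate luminal cells SWI/SNF complexes are known to work at enhancers bound by lineage factors such as FOXA1 and HOXB13.

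The 3 classes were all found at gene starts. As examples, 3 promoters are shown, which lay under peaks of both proteins, of BRG1 only and of SMARCC2 only. Each stretch is the 250 bases before an annotated start, 5′ to 3′ on the gene's strand, from RefSeq (GRCh38.p14). Capitals mark matches on either strand to the NRF1 motif in BSN and ZC3H14, and to the ETS motif CCGGAAGT in DORIP1. Each promoter was picked after the values were seen, as an example with a strong peak and a motif match. The match is no evidence of binding.
BSN: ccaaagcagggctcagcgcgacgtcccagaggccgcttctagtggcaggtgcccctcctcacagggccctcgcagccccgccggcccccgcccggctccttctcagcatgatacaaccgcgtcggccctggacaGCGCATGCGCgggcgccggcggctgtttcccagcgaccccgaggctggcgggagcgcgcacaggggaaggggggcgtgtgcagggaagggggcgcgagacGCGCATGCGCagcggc
DORIP1: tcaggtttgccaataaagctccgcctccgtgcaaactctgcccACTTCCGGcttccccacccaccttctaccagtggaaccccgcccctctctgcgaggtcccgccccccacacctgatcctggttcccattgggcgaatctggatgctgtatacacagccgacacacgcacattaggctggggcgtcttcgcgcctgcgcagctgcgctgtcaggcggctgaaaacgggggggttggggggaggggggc
ZC3H14: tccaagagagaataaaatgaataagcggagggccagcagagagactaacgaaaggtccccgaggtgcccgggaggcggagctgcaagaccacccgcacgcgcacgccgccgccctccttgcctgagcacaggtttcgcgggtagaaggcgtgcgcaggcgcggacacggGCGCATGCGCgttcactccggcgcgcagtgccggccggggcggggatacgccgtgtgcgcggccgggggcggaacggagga

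The BSN promoter (chr3:49554227-49554476, plus strand) lay under peaks of both proteins. BSN encodes a scaffold protein of the presynaptic active zone. The BRG1 summit, the base with the most tags in a peak, lay 239 bases after the BSN start with 73 tags. The SMARCC2 summit lay 325 bases after it with 74 tags. The promoter of DORIP1 (chr14:44897025-44897274, plus strand) lay under a BRG1 peak and no SMARCC2 peak. The BRG1 summit was 440 bases after the start with 44 tags. The promoter of ZC3H14 (chr14:88562787-88563036, plus strand), which encodes a zinc-finger protein that binds poly(A) RNA, lay under a SMARCC2 peak and no BRG1 peak. The SMARCC2 summit was 346 bases after the start with 36 tags. Whether the DORIP1 and ZC3H14 peaks met the other protein outside the promoter is not given here. In all 3 examples the summits lay downstream of the start, outside the printed stretch.

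Most SMARCC2 peaks lay on BRG1 peaks, while BRG1 peaks were divided more evenly between the classes. Of the BRG1 peaks, 20010 were co-occupied (55.3%, Wilson 95% interval 54.8% to 55.8%) and 16164 were BRG1-alone (44.7%). Of the SMARCC2 peaks, 20582 were co-occupied (80.1%, interval 79.6% to 80.6%) and 5124 were SMARCC2-alone (19.9%). These shares depend on the length of the lists. When the BRG1 list was limited to its 25706 strongest peaks, as many as the SMARCC2 list held, 66.4% of BRG1 peaks and 68.8% of SMARCC2 peaks were co-occupied.

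The overlapping peaks merged into 19783 co-occupied regions. Of these, 18877 (95.4%) held a single BRG1 peak and a single SMARCC2 peak. In 681 regions (3.44%) a single BRG1 peak covered 2 or more SMARCC2 peaks, and in 193 (0.976%) a single SMARCC2 peak covered 2 or more BRG1 peaks. The remaining 32 regions (0.162%) held 2 or more peaks of each. The regions had a median width of 1088 bp with quartiles at 797 and 1539 bp. The widest, 13849 bp, was the full extent of a single BRG1 peak.

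The overlaps were broad rather than marginal. The 20809 overlapping pairs shared a median of 603 bp, and together 14.99 Mb, which was 43.7% of the sequence under BRG1 peaks and 73.6% of that under SMARCC2 peaks. In 8494 pairs (40.8%) the SMARCC2 peak lay wholly inside the BRG1 peak, and in 2542 (12.2%) the BRG1 peak lay wholly inside the SMARCC2 peak. Few peaks sat near the limit that set the classes. Just inside it, 165 pairs (0.793%) shared under 100 bp, the smallest overlap being 1 bp. Just outside it, 94 BRG1-alone peaks (0.582%) and 86 SMARCC2-alone peaks (1.68%) ended under 100 bp from a peak of the other list.

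Co-occupied peaks were taller than alone peaks in both lists. The median number of tags at the summit was 30 for co-occupied BRG1 peaks (quartiles 25 to 39) and 23 for BRG1-alone peaks (19 to 28). It was 30 for co-occupied SMARCC2 peaks (24 to 38) and 23 for SMARCC2-alone peaks (20 to 28). The tallest BRG1-alone peak had 98 tags and the tallest co-occupied BRG1 peak 555. The tallest SMARCC2-alone peak had 92 tags and the tallest co-occupied SMARCC2 peak 1161. Median fold enrichment over background, the authors' own value for each peak, was 4.59 for co-occupied and 3.59 for alone BRG1 peaks, and 4.37 and 3.78 for SMARCC2. Alone peaks of the 2 proteins therefore had the same median height in tags, and both alone classes reached well into the range of co-occupied peaks.

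The co-occupied share fell steadily with strength in both lists. Each list was divided into 5 bins of equal size by the authors' −log10 p. In the BRG1 bins 92.4%, 70.6%, 50.9%, 36.9% and 25.7% of peaks were co-occupied, from the strongest bin to the weakest. For SMARCC2 the shares were 95.9%, 87.6%, 80.2%, 72.6% and 64.1%. With 10 bins in place of 5, 97.1% of BRG1 peaks and 97.7% of SMARCC2 peaks were co-occupied in the strongest bin. In the weakest bin the shares were 23.2% and 62.6%. The lists thus differed little at the top and most at the bottom.

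**Figure D1:**
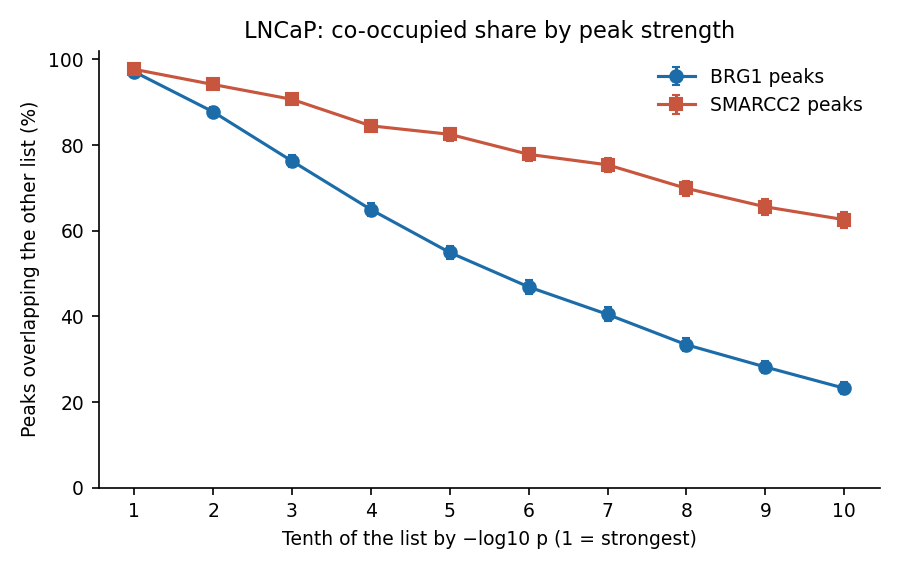
Share of peaks co-occupied (vertical axis, percent) in 10 bins of each LNCaP list from the strongest to the weakest by the authors' −log10 p, with Wilson 95% intervals. Both lines start near 97% and fall, BRG1 to 23.2% and SMARCC2 to 62.6%.

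The median width of BRG1 peaks was 945 bp in the co-occupied class (quartiles 645 to 1401) and 580 bp in the alone class (449 to 808), a ratio of 1.63. For SMARCC2 the medians were 727 bp (529 to 1027) and 485 bp (406 to 611), a ratio of 1.50. Wider peaks overlap others more readily, so these widths are a description. Peaks over 2 kb made up 10.4% of co-occupied BRG1 peaks (2085 peaks) and 0.996% of BRG1-alone peaks (161). They made up 3.04% of co-occupied SMARCC2 peaks (626), and 2 SMARCC2-alone peaks were that wide. Within the 5 strength bins co-occupied peaks had the larger median in every bin of both lists, from 1236 against 833.5 bp in the strongest BRG1 bin to 631 against 504 bp in the weakest. For SMARCC2 the medians went from 982 against 571 bp to 549 against 455 bp. When only the 10000 strongest peaks of each list were compared, the BRG1 ratio was 1.13.

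**Figure D2:**
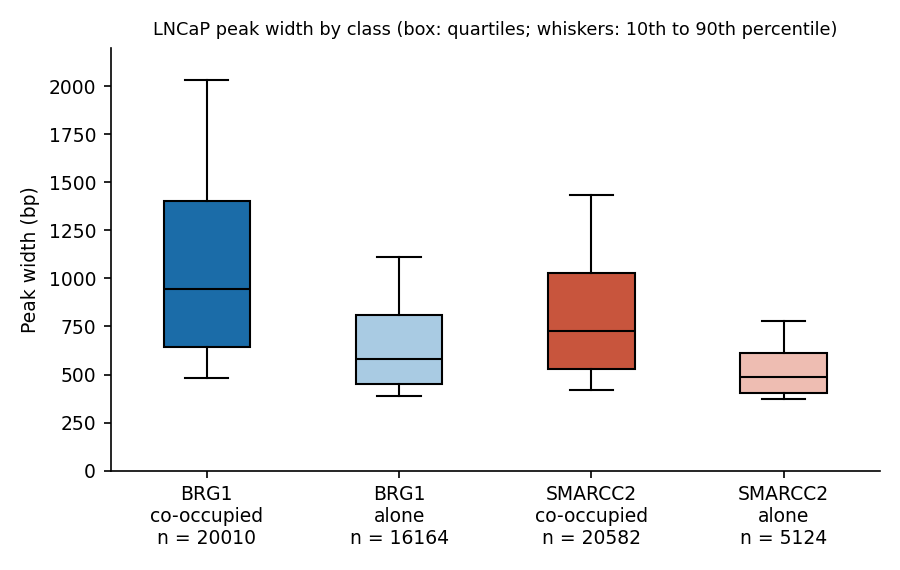
Width of LNCaP peaks in the 4 classes (base pairs), co-occupied and alone for each protein, with boxes for the quartiles, a line for the median and whiskers to the percentiles 10 and 90. Co-occupied BRG1 peaks reach the largest widths, with a median of 945 bp, and SMARCC2-alone peaks are the narrowest, with a median of 485 bp.

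Where the proteins shared a site, their summits lay close together. The overlap rule and the choice of the nearest summit themselves limit this distance. It was not compared with the distance that they alone would give. The median distance from a co-occupied BRG1 summit to the nearest summit of an overlapping SMARCC2 peak was 92 bp (order-statistic 95% interval 90 to 94, quartiles 35 to 232, n = 20010 peaks), less than the length of DNA wrapped on a nucleosome. Of the BRG1 summits, 33.4% had the SMARCC2 summit within 50 bp, 52.7% within 100 bp and 90.8% within 500 bp. The distance was shorter at stronger peaks, with medians of 53, 97, 123, 150 and 183 bp from the strongest to the weakest BRG1 bin. It was longer in wide peaks, 119 bp above 2 kb against 84 bp up to 1 kb.

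Summit distance also varied with location. A summit was placed at a gene end when it lay within 1 kb of either end of a protein-coding gene, inside a gene when elsewhere in its span, and otherwise between genes. The median distance was 144 bp at gene ends (interval 138 to 151, n = 4193), 88 bp inside genes (85 to 91, n = 9938) and 71 bp between genes (68 to 75, n = 5879). The intervals did not overlap, but strength was not held constant. Of co-occupied BRG1 peaks, 13.8% lay at a gene end in the strongest bin and 25.5% in the weakest. The part of strength in these distances was not tested. The summits lay within 50 bp of each other in 21.2% of cases at gene ends, 34.7% inside genes and 39.7% between genes.

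**Figure D3:**
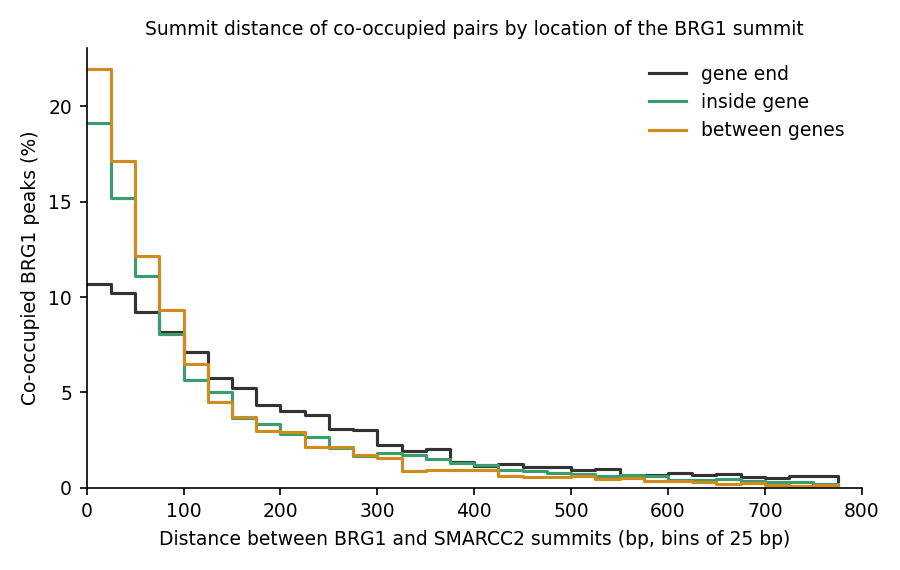
Distance between BRG1 and SMARCC2 summits (base pairs) at co-occupied BRG1 peaks, by location. Short distances are most frequent between genes (median 71 bp) and least frequent at gene ends (median 144 bp).

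Alone peaks lay at a wide range of distances from the other protein, which were not compared with the spacing that list length alone would give. The nearest SMARCC2 summit lay a median of 20.3 kb from a BRG1-alone summit (quartiles 5.93 to 52.3 kb). The nearest BRG1 summit lay a median of 17.8 kb from a SMARCC2-alone summit (4.72 to 50.9 kb). A summit of the other list lay within 500 bp of 60 BRG1-alone peaks (0.371%) and 49 SMARCC2-alone peaks (0.956%). The rule itself leaves few such cases, since alone peaks share no base with a peak of the other list. Within 10 kb the shares were 34.1% and 37.6%.

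At the 18877 regions with a single peak of each protein, the tags at the 2 summits rose and fell together. Spearman's rho across regions was 0.720, given as a description because the 2 libraries share the cells and the local background. It was 0.594 at gene ends, 0.738 inside genes and 0.757 between genes. After the scaling that the peak caller applied, the log2 ratio of SMARCC2 to BRG1 tags had a median of -0.08 with quartiles of -0.28 and 0.17. SMARCC2 was the higher of the 2 in 35.7% of these regions at gene ends, 45.0% inside genes and 45.8% between genes. Gene ends thus leaned further towards BRG1 than the other locations.

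The 6 strongest co-occupied regions, by the summed ranks in both lists, all lay away from gene ends. The strongest was at chr3:122650965-122653335, between genes and 12.8 kb from PARP15, which encodes a mono-ADP-ribosyltransferase. It was first in both lists, with 555 BRG1 tags, 1161 SMARCC2 tags and summits 13 bp apart. Next came chr5:15356040-15358184, with no gene end within 100 kb, 239 BRG1 and 468 SMARCC2 tags. A region inside ABHD2, a lipid hydrolase gene (chr15:89123833-89131526), had 277 BRG1 and 465 SMARCC2 tags with both summits on the same base. Its nearest gene end belonged to LOC124903573. A region inside ZBTB16, which encodes the zinc-finger repressor PLZF (chr11:114176847-114180892), had 210 and 435 tags.

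The other two strongest co-occupied regions lay at CDK19 and SLIT2. CDK19 encodes a kinase of the Mediator complex, and the region inside it (chr6:110652127-110658197) had 219 BRG1 and 271 SMARCC2 tags. SLIT2 encodes a secreted guidance ligand of ROBO receptors, and its region (chr4:20638597-20640263) lay 19.0 kb from the gene with 164 and 317 tags. Summits in these 6 regions were 0 to 29 bp apart, and SMARCC2 had more tags than BRG1 in each. All 6 overlapped peaks of both proteins in MR49F, against 75.8% of all co-occupied BRG1 peaks.

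The strongest BRG1-alone peak, by −log10 p, ranked 480th in its list. It lay inside XXYLT1, a xylosyltransferase gene, at chr3:195259565-195260592 with 83 tags. The others were weaker in −log10 q, which ran from 36.5 at XXYLT1 to 27.1. A peak inside MRAP, an accessory protein of melanocortin receptors (chr21:32300165-32300949), had 56 tags. A peak at chr11:4676941-4679446 with 57 tags lay 1.98 kb from OR51E2, an olfactory receptor gene known for high expression in prostate. A peak 5.36 kb from SWAP70 (chr11:9757661-9758662) had 59 tags, and so did a peak far from any gene at chr3:176429850-176431136. The sixth lay inside NEURL1 (chr10:103576698-103577323) with 64 tags. Peaks of both proteins overlapped 3 of the 6 in MR49F, those at XXYLT1, OR51E2 and NEURL1, and the other 3 had neither. Over all BRG1-alone peaks 38.6% overlapped both and 41.0% neither.

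The strongest SMARCC2-alone peak ranked 187th in its list, with 82 tags. It lay at chr4:142912747-142913869, 66.7 kb from INPP4B, which encodes an inositol phosphatase regulated by androgen. A pair of peaks, at chr11:39625205-39626089 with 60 tags and chr2:51764616-51765519 with 64, had no gene end within 100 kb. The others lay 56.5 kb from CYLC2, a sperm-head cytoskeleton gene (chr9:102938339-102939164, 58 tags), inside GARRE1 (chr19:34326618-34327549, 81 tags), and 32.3 kb from RGS2, a regulator of G-protein signalling (chr1:192844323-192844822, 67 tags). All 6 overlapped peaks of both proteins in MR49F, where the BRG1 peak missing from the LNCaP list was thus listed. Over all SMARCC2-alone peaks 42.5% overlapped both. None of these 18 strongest sites lay at a gene end.

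Gene ends were least common among SMARCC2-alone peaks. The share of summits at a gene end was 21.0% for co-occupied BRG1, 19.2% for BRG1-alone, 20.8% for co-occupied SMARCC2 and 13.5% for SMARCC2-alone peaks. The shares inside genes were 49.7%, 46.8%, 50.1% and 51.9%, and those between genes 29.4%, 34.0%, 29.1% and 34.6%. Co-occupied minus alone, the gene-end share differed by 1.75 percentage points for BRG1 (Newcombe 95% interval 0.921 to 2.58) and by 7.28 points for SMARCC2 (6.17 to 8.35). BRG1-alone exceeded SMARCC2-alone peaks by 5.70 points (4.56 to 6.79). The median distance to the nearest gene end was 16.0 kb for BRG1-alone and 30.4 kb for SMARCC2-alone peaks.

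The BRG1 difference at gene ends depended on strength. In the strongest BRG1 bin 13.8% of co-occupied and 18.6% of alone peaks lay at a gene end, a difference of -4.84 points (-8.40 to -1.69). In the weakest bin the shares were 25.5% and 17.4%, a difference of 8.11 points (5.92 to 10.4). The sign also turned under 5 of the other settings listed in the closing part, so no direction is given for BRG1 over the whole list. For SMARCC2 co-occupied peaks had the higher share in every bin, from 9.13% against 2.37% in the strongest to 27.3% against 16.6% in the weakest. That sign turned when co-occupancy required summits within 200 bp (-3.30 points) and when the 10000 strongest peaks of each list were compared (-5.46 points).

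**Figure D4:**
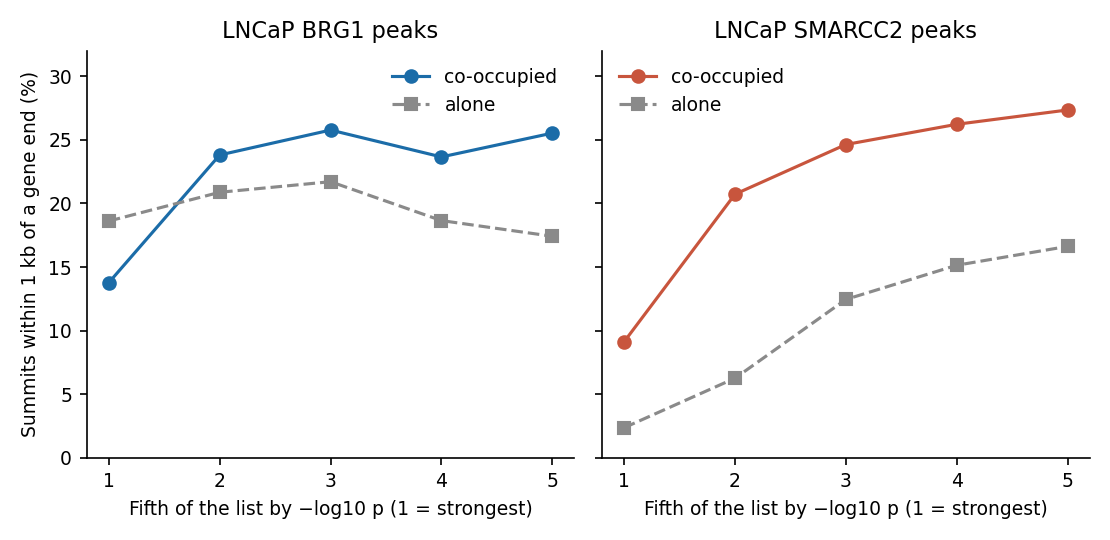
Share of peaks whose summit lay within 1 kb of a protein-coding gene end (vertical axis, percent) in 5 bins of each LNCaP list by strength, for co-occupied and alone peaks. The SMARCC2 lines keep their order in every bin, and the BRG1 lines cross after the strongest bin, where alone peaks are at 18.6% and co-occupied peaks at 13.8%.

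Gene starts could be placed on a strand for 15843 of the 20037 protein-coding genes, with none on chromosome 8. Within 1 kb of such a start lay 19.6% of co-occupied BRG1, 17.7% of BRG1-alone, 19.5% of co-occupied SMARCC2 and 13.1% of SMARCC2-alone summits. Only 0.947% to 1.63% of summits in a class lay near the far end of these genes alone, so gene ends were mainly starts. The summits mostly fell downstream of the start. Their median position was 237.5 bases after it for co-occupied BRG1, 276 for co-occupied SMARCC2, 262 for SMARCC2-alone and 162 for BRG1-alone peaks. The share downstream was 72.6%, 74.0%, 71.6% and 61.0% in the same order, lowest for BRG1-alone peaks.

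Of 22078 promoter windows of 300 bases (250 before to 50 after a start), 2186 (9.90%) overlapped peaks of both proteins. A BRG1 peak without a SMARCC2 peak overlapped 3029 (13.7%), a SMARCC2 peak without a BRG1 peak 425 (1.92%), and neither 16438 (74.5%). Windows with peaks were rich in G and C. Median GC content was 70.0% with both, 67.0% with BRG1 alone, 67.0% with SMARCC2 alone and 60.0% with neither, against 62.3% over all windows. The median number of CpG dinucleotides was 30, 28, 28 and 17 in the same order.

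Motifs were searched in these windows on both strands. Windows with both proteins held the ETS motif less often than windows with BRG1 alone and the NRF1 motif less often than windows with SMARCC2 alone. The intervals did not overlap, but they treat windows as independent and are likely too narrow. The 2186 windows with both belonged to 1839 genes, and 1015 pairs of windows on opposite strands shared bases. These contrasts were picked from several motifs and were not tested. The ETS motif CCGGAAGT was held by 5.58% of windows with both (Wilson 95% interval 4.69% to 6.62%), 8.19% with BRG1 alone (7.26% to 9.22%), 5.88% with SMARCC2 alone (4.02% to 8.54%) and 5.31% of all. The palindromic NRF1 motif, in capitals in the BSN and ZC3H14 promoters, was held by 1.10% (0.739% to 1.63%), 1.98% (1.54% to 2.54%) and 3.53% (2.15% to 5.74%, 15 of 425 windows), against 1.48% of all. A motif rich in A and T was rarer in windows with peaks than over all windows. The HOXB13 motif TTTATNG was held by 5.49%, 5.51% and 6.59%, against 8.01%. The FOXA motif TGTTTAC was held by 3.25%, 2.28% and 3.53%, against 2.85%, and the AP-1 motif TGANTCA by 5.03%, 4.56% and 5.88%, against 6.16%. The palindromic NFI motif was found in 6 windows in all and a CTCF core motif in 3, the latter all without a peak. Most peaks lay outside promoters, and their sequences were not analysed here.

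Co-occupied LNCaP peaks recurred in MR49F more often than alone peaks. Of co-occupied BRG1 peaks, 80.5% overlapped an MR49F BRG1 peak and 82.8% an MR49F SMARCC2 peak. Of BRG1-alone peaks, 50.9% and 46.7% did. Of co-occupied SMARCC2 peaks, 82.2% overlapped an MR49F SMARCC2 peak and 80.3% an MR49F BRG1 peak. Of SMARCC2-alone peaks, 56.9% and 48.2% did. For the same antibody the difference was 29.7 points for BRG1 (Newcombe 95% interval 28.7 to 30.6) and 25.2 points for SMARCC2 (23.8 to 26.7).

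The gap also held within the bins of strength, although strength and width were not equal inside a bin. For BRG1 it was 16.3, 17.6, 20.2, 24.0 and 22.6 points from the strongest to the weakest bin, and for SMARCC2 6.50, 15.2, 16.9, 19.3 and 24.5 points. In the strongest BRG1 bin median −log10 q was 16.8 for co-occupied and 13.7 for alone peaks, and median width 1236 and 833.5 bp. Wider peaks overlap any list more readily. With 5 bins by width the gap was 12.5 points in the widest BRG1 bin and 12.2 points in the widest SMARCC2 bin. It was larger in every narrower bin of both lists. A gap with strength and width both held constant was not tested. Over the whole lists the gap kept its sign under the 5 settings that moved it. Under them it was 9.70 to 26.1 points for BRG1 and 10.2 to 21.7 points for SMARCC2. Strong alone peaks overlapped the other protein in MR49F less often than co-occupied peaks of the same bin. In the strongest bin, MR49F BRG1 peaks overlapped 68.2% of SMARCC2-alone and 91.0% of co-occupied SMARCC2 peaks. The share over the whole SMARCC2 list was 73.9%. MR49F SMARCC2 peaks overlapped 66.1% of BRG1-alone and 92.0% of co-occupied BRG1 peaks in that bin. The share over the whole BRG1 list was 66.7%.

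A minority of alone peaks kept their single protein in MR49F, but a larger share than over all peaks of their list. Of BRG1-alone peaks, 38.6% overlapped peaks of both proteins, 12.2% BRG1 without SMARCC2, 8.10% SMARCC2 without BRG1 and 41.0% neither. Of SMARCC2-alone peaks, 42.5% overlapped both, 14.5% SMARCC2 without BRG1, 5.76% BRG1 without SMARCC2 and 37.3% neither. Over all peaks, 8.07% of the BRG1 list overlapped BRG1 without SMARCC2, and 8.46% of the SMARCC2 list overlapped SMARCC2 without BRG1. Co-occupied BRG1 peaks overlapped both in 75.8% of cases and neither in 12.5%. The MR49F lists were longer, with 44308 BRG1 and 47615 SMARCC2 peaks, and longer lists overlap more peaks.

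**Figure D5:**
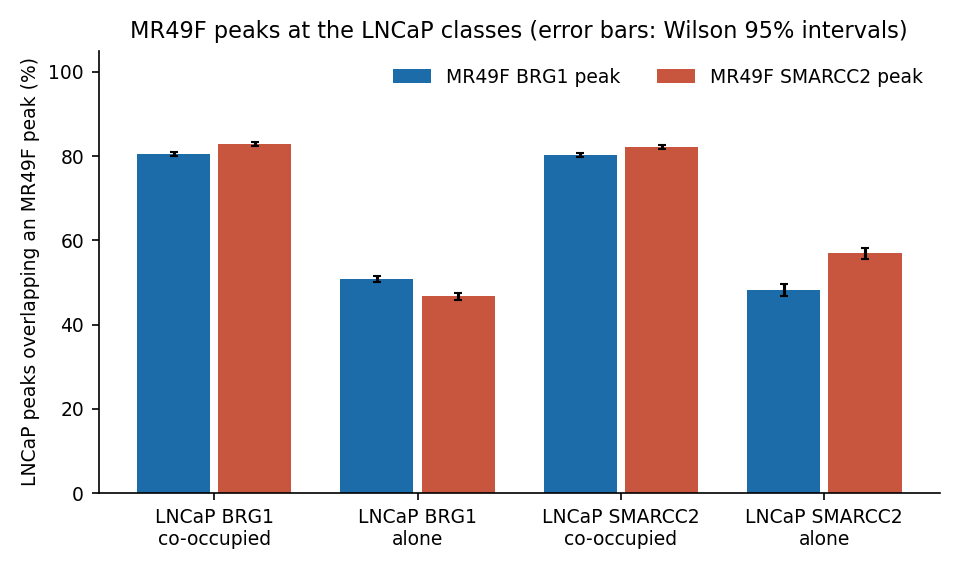
Share of LNCaP peaks in each class that overlapped a BRG1 or a SMARCC2 peak in MR49F (vertical axis, percent), with Wilson 95% intervals. Co-occupied classes stand near 80% for either protein, while alone classes lie between 46.7% and 56.9%.

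Sites were given to whichever protein-coding gene had an end closest to the summit, up to 100 kb away. Of the 20037 genes, 8338 (41.6%) had at least 1 co-occupied region, 8138 (40.6%) a BRG1-alone peak and 3073 (15.3%) a SMARCC2-alone peak. A co-occupied region lay at an end of 4005 genes (20.0%). All 3 kinds were found at 1359 genes, co-occupied regions without alone peaks at 3117, and no peak at 7530. BRG1-alone peaks outnumbered SMARCC2-alone peaks at 7057 genes (35.2%), and the reverse held at 1449 (7.23%). Counts per gene also depend on the size of the gene and the space around it. A limit of 10 kb lowered the count of co-occupied regions by over 1.5 times at 45 of the 66 genes chosen by rule, among them every gene given in the next 3 paragraphs.

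The genes with the most co-occupied regions were long. PPP3CA, the catalytic subunit of calcineurin (324 kb), had 24 co-occupied regions, 13 BRG1-alone and 3 SMARCC2-alone peaks. LIMCH1, an activator of non-muscle myosin (340 kb), had 23, 8 and 2. TBL1XR1, a subunit of the NCoR corepressor complex (182 kb), had 22, 17 and 5. PRKD1, a serine/threonine kinase downstream of diacylglycerol, had 21 co-occupied regions and ZBTB16 had 19. GRHL2, an epithelial transcription factor, had 16, while RASSF3 and REEP3 had 15 each. With summits required within 200 bp these counts fell to 11 for PPP3CA, 17 for LIMCH1, 9 for TBL1XR1, 9 for PRKD1, 10 for ZBTB16, 9 for GRHL2, 10 for RASSF3 and 11 for REEP3. With −log10 q of 5 or more required in both lists they were 12 for PPP3CA, 13 for TBL1XR1, 10 for GRHL2 and 8 for REEP3, among others.

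The most BRG1-alone peaks were at KDM6A, the X-linked H3K27 demethylase UTX, with 21 beside 12 co-occupied regions and 2 SMARCC2-alone peaks. CASZ1, a zinc-finger transcription factor, had 16 BRG1-alone and 0 SMARCC2-alone peaks beside 8 co-occupied regions. ZBTB16 had 16 BRG1-alone peaks and 1 SMARCC2-alone peak. FBXL17, a substrate receptor of an SCF ubiquitin ligase (523 kb), had 14 BRG1-alone peaks, and GULP1, an adaptor for engulfment of dying cells, had 13. PPP3CA and RASSF3 had 13 each as well. At CASZ1 and GULP1 every SMARCC2 peak thus lay on a BRG1 peak.

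The most SMARCC2-alone peaks were at FOXO3, a forkhead transcription factor restrained by AKT, with 6 beside 5 BRG1-alone peaks and 9 co-occupied regions. WAC, an adaptor for histone H2B ubiquitination, had 5 SMARCC2-alone and 2 BRG1-alone peaks. CBFA2T2, a transcriptional corepressor, and ZNF608 had 5 of each kind, and TBL1XR1 and FBXL17 also had 5 SMARCC2-alone peaks. EVL, an actin regulator of the Ena/VASP family, had 4 beside 2 BRG1-alone peaks. FRY had 4 beside 6. Thus SMARCC2-alone peaks were the more numerous alone kind at FOXO3, WAC and EVL.

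Gene lists were read against the 41.6% of all genes with a co-occupied region. Of 31 androgen response genes, 26 (83.9%) had a co-occupied region, with 91 regions, 85 BRG1-alone and 19 SMARCC2-alone peaks in all. ABCC4, an efflux transporter, had 8 co-occupied regions and BMPR1B, a BMP receptor, had 7. Of 16 luminal prostate genes 11 (68.8%) had a region, with 44 regions, 28 BRG1-alone and 3 SMARCC2-alone peaks. Co-occupied regions were 46.7% of the sites at androgen response genes and 58.7% at luminal prostate genes, against 48.1% at all genes. Among transcription factor genes of the prostate lineage, GRHL2 had 16 regions and NFIX had 11. Coregulator genes had a region in 16 of 20 cases (80.0%), Wnt pathway genes in 16 of 21 (76.2%), led by TCF7L2 with 6 and RNF43 with 5, and receptor kinase genes in 15 of 20, led by EGFR with 9 and IGF1R with 7. Median gene span differed between lists, 155 kb for coregulators against 24.1 kb for all genes, so the shares are not corrected for size. With assignment within 10 kb the counts fell at all the genes named here. ABCC4 had 0 co-occupied regions, BMPR1B, RNF43 and EGFR had 1 each, GRHL2 and NFIX 2 each, and TCF7L2 and IGF1R 3 each.

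Other lists were near or below the share for all genes. Cell cycle and MYC genes had a co-occupied region in 9 of 20 cases (45.0%), AP-1 factor genes in 6 of 14 (42.9%) and housekeeping genes in 12 of 26 (46.2%). Neuroendocrine genes had a region in 8 of 22 cases (36.4%), among them EZH2 with 2, while CHGA and SYP had no peak of any kind. Cytosolic ribosomal protein genes had a region in 10 of 26 cases (38.5%), and they held 22 BRG1-alone peaks and 1 SMARCC2-alone peak. Co-occupied regions were 34.3% of their sites, against 48.1% at all genes. A BRG1-alone peak was found at 57.7% of the ribosomal protein genes and 64.3% of AP-1 factor genes. It was found at 60.0% of cell cycle and MYC genes and 80.6% of androgen response genes, against 40.6% of all genes. Co-occupied regions were least common at genes of other cell types. They were found at 4 of 12 fibroblast genes (33.3%), 3 of 14 leukocyte genes (21.4%) and 2 of 15 hepatocyte and muscle genes (13.3%). The defining genes PTPRC, CD3D, ALB, APOA1, MYOD1, CKM and DCN had no assigned peak of either protein, CD14 had 1 BRG1-alone peak and COL1A1 had 1 co-occupied region. Other members of these lists did have regions, with 9 at FBN1, a fibrillin gene, and 1 each at CD3E, CD8A, LYZ, VIM, COL1A2, F2 and FGB. With assignment within 10 kb FBN1 had 2. Each of the luminal markers KLK3, KLK2, HOXB13, FOLH1, KRT8 and KRT18 had at least 1 peak.

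The SWI/SNF subunit genes themselves had a co-occupied region in 17 of 29 cases (58.6%), with 38 regions, 31 BRG1-alone and 8 SMARCC2-alone peaks. Co-occupied regions were 49.4% of their sites, near the 48.1% at all genes. ARID1B, a subunit of the canonical BAF form, had 9 co-occupied regions with 4 BRG1-alone and 4 SMARCC2-alone peaks, and SMARCA2 had 6. With −log10 q of 5 or more SMARCA2 had 1 and SMARCA4 had 0, with summits within 200 bp SMARCA2 had 3, and within 10 kb ARID1B had 2 and SMARCA2 had 3. SMARCA4 had a co-occupied region at a gene end, with 29 BRG1 and 25 SMARCC2 tags, and 2 BRG1-alone peaks with 41 and 22 tags. The SMARCC2 gene had a single BRG1-alone peak of 24 tags at chr12:56188874-56189235, 0.513 kb from a gene end, and no SMARCC2 peak.

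KLK3 encodes prostate-specific antigen and is a classical androgen-induced gene. Its co-occupied region lay 3.71 kb from the gene, where the BRG1 peak (chr19:50849027-50852524) had 64 tags and the SMARCC2 peak (chr19:50850453-50851537) had 75. At the gene end, 0.173 kb away, lay a BRG1-alone peak of 27 tags, and a further BRG1-alone peak also had 27. A second SMARCC2 peak of 41 tags assigned to KLK3, 10.6 kb away, overlapped a BRG1 peak and was co-occupied. In MR49F the peak at the gene end overlapped a BRG1 but no SMARCC2 peak. The summits in the co-occupied region were over 200 bp apart, so KLK3 had none under that stricter setting.

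TMPRSS2, an androgen-induced serine protease gene, had 5 co-occupied regions and 7 BRG1-alone peaks but 0 SMARCC2-alone peaks. BRG1 tags in the 5 regions were 51, 40, 44, 39 and 26, and SMARCC2 tags were 44, 33, 40, 27 and 22. BRG1 was thus the higher in each. The 5 regions fell to 2 with summits within 200 bp and to 1 with assignment within 10 kb. The BRG1-alone peak nearest the gene, 0.499 kb from its end, had 39 tags. FKBP5, a co-chaperone induced by androgen, had 2 co-occupied regions, with 45 BRG1 and 34 SMARCC2 tags and with 25 and 28. It also had 1 BRG1-alone peak of 19 tags. With −log10 q of 5 or more FKBP5 had 1 co-occupied region, and within 10 kb it had 0.

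FOXA1 and HOXB13 differed from each other. FOXA1, the pioneer factor of prostate enhancers, had a single BRG1-alone peak of 34 tags 1.19 kb from the gene (chr14:37587304-37589333). HOXB13, the prostate lineage homeobox gene, had a BRG1-alone peak 4492 bp wide at a gene end, 0.165 kb away, with 49 tags. It also had 2 co-occupied regions, each with a single BRG1 peak (49 and 29 tags) over 2 SMARCC2 peaks (34 and 29 tags, and 27 and 29). The first of these regions also lay at a gene end, with its BRG1 summit 0.717 kb away. At FOXA1 no co-occupied region was assigned.

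The luminal surface genes carried several shared sites. FOLH1, which encodes prostate-specific membrane antigen, had 9 co-occupied regions, 6 BRG1-alone peaks and 0 SMARCC2-alone peaks. Its strongest region had 78 BRG1 and 83 SMARCC2 tags with summits at positions 49172606 and 49172608 of chromosome 11. FOLH1 has a near-identical copy, FOLH1B, between which reads may have been divided. STEAP1, a metalloreductase family gene, had 5 co-occupied regions with 61, 43, 35, 43 and 77 BRG1 tags and 74, 35, 38, 52 and 88 SMARCC2 tags. SMARCC2 was the higher in 4 of those 5. Within 10 kb FOLH1 had 2 co-occupied regions and STEAP1 had 3. OR51E2 had 3 BRG1-alone peaks of 32, 21 and 57 tags and no SMARCC2 peak. CLDN4, a tight-junction claudin gene, likewise had 3 BRG1-alone peaks and no peak of the other kinds.

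Chromosomes differed in how the lists met. On chromosome 19, which is dense in genes, 37.8% of 986 BRG1 peaks were co-occupied (34.9% to 40.9%), the lowest share among autosomes, while 86.0% of SMARCC2 peaks were (82.5% to 88.9%), the highest. On chromosome X the shares were 45.1% for BRG1 (41.1% to 49.2%) and 67.9% for SMARCC2 (63.1% to 72.3%). Chromosome X had a lower background at peaks, a median of 3.22 tags for BRG1 against 4.27 to 6.05 on the autosomes. The part of that background in the shares was not tested. Without chromosomes X and Y and unplaced sequences the shares over both lists moved by less than their counting intervals.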

How the data were processed

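ChIP-seq peak lists of BRG1 and SMARCC2 in LNCaP and MR49F were used, 1 library per antibody and line, without the 2 input libraries. Software listed in the submitters' processing notes, with no role given, is MACS2 2.1.0, BWA 0.7.10 and SAMtools, with hg38 as the only build. The 4 lists have the 10 columns of MACS2's narrowPeak format. The deposited values per peak are a score, which was not used further, a fold ratio over background at the summit, and the −log10 of a p-value and of a q-value. The lowest deposited −log10 q was just above 2 in both LNCaP lists, so the authors' lists end near a q-value of 0.01. The deposited summit offset was added to the peak start.

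Peaks were compared with Python 3.11.15, NumPy 2.4.6, pandas 2.3.3 and SciPy 1.17.1, and plotted with matplotlib 3.10.9. Whole tags at each summit were recovered from the deposited fold and −log10 p, within 0.005 of the deposited −log10 p. This gave whole tags for 100% of LNCaP peaks, with a median of 27 for BRG1 (13 to 555) and 28 for SMARCC2 (14 to 1161). The pileup scale so recovered was 0.971 for BRG1 and 0.920 for SMARCC2. If both were scaled to the same input, the BRG1 library held 0.947 times the tags of the SMARCC2 library. Total depth is not given in the sources used here. The overlap, assignment and tag steps were tested on simulated data.

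Genes came from a RefSeq table of 20037 protein-coding genes (GRCh38.p14), which has no strand, so location used the nearer gene end in place of the gene start, and starts came from the RefSeq promoter table. Wilson and Newcombe 95% intervals are given for shares and their differences.

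The members, the gene rules and the 15 gene lists (302 entries, all matched) were chosen with earlier results of these data known. Genes and sites were named by rule. The rule took the 6 strongest sites of each class, the 8 genes with most sites of each kind, the 2 genes of each list with most co-occupied regions, and a fixed set with KLK3, TMPRSS2, FKBP5, FOXA1, HOXB13, SMARCA4 and SMARCC2. A few genes and lists under these rules are not reported here. Other genes named were chosen after their values were seen. Alternatives covered the overlap rule, the peak threshold, the gene window, the assignment distance and the pairing. Those with an equal list length, annotated starts and no sex chromosomes were chosen after seeing the data.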

Additional observations from a re-analysis of the deposited data

Results flagged for a closer look

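The order of the 2 proteins turned between the lines on 2 measures. In LNCaP the BRG1 list was longer than the SMARCC2 list by 10468 peaks (36174 against 25706), while in MR49F the difference, BRG1 minus SMARCC2, was -3307 (44308 against 47615). In LNCaP the co-occupied share was 55.3% for BRG1 and 80.1% for SMARCC2, a difference of -24.8 points. In MR49F it was 79.8% and 75.7%, a difference of 4.01 points. These differences between the lines were not tested, since each list is 1 library. None of the 6 other measures compared had opposite signs in the 2 lines, among them the gene-end share of alone peaks (19.2% for BRG1 and 13.5% for SMARCC2 in LNCaP, 19.5% and 7.35% in MR49F).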

How the results depend on the processing

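Of 67 alternative values for the 10 main results, 19 moved by less than the counting interval or, for the gene count, by less than 1.5 times, 41 moved by more and 7 changed sign. The cause was not tested. In order, the values that follow are for the BRG1 and the SMARCC2 list.
With at least 0.5 of the length of both peaks shared, the co-occupied shares were 40.0% and 56.3%, the width ratios 1.33 and 1.45, the gene-end differences -0.425 and 1.00 points and the MR49F differences 22.7 and 15.6 points, and the median summit distance was 79 bp. With summits within 200 bp the shares were 39.4% and 55.4%, the width ratios 1.39 and 1.22, the gene-end differences -3.71 and -3.30 points and the MR49F differences 22.9 and 14.7 points. With −log10 q of 5 or more the SMARCC2 share was 76.9%, the width ratios 1.44 and 1.46, the gene-end differences -4.52 and 2.75 points, the MR49F differences 21.2 and 18.3 points and the summit distance 71 bp. With only the top 10000 peaks by strength in either list, the shares were 62.9% and 63.8%, the width ratios 1.13 and 1.35, the gene-end differences -11.3 and -5.46 points and the MR49F differences 9.70 and 10.2 points, with a summit distance of 47 bp and 3496 genes with a co-occupied region against 8338. With BRG1 limited to its 25706 strongest peaks the shares were 66.4% and 68.8%, the width ratios 1.55 and 1.47, the gene-end differences -0.222 and 2.41 points, the MR49F differences 26.1 and 21.7 points and the summit distance 83 bp. A gene-end window of 500 bp gave 4.73 points for SMARCC2, and a window of 2500 bp gave 0.259 and 8.41 points. Single peak pairs gave a summit distance of 89 bp.
Over the 66 named genes, the count of co-occupied regions fell by over 1.5 times at 22 with summits within 200 bp, at 29 with −log10 q of 5 or more and at 45 within 10 kb. No paired analysis was possible because each antibody had 1 library per line, and for the same reason no replicate could be left out. Low tag counts limit the weak end of both lists, since a site just under the authors' threshold in the other list counts as alone.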

Other observations

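Further epithelial and lineage genes, chosen after their values were seen, varied in their make-up. CDH1, which encodes E-cadherin, had 5 co-occupied regions and no alone peak of either protein. MSMB, a secreted prostate protein gene, had 5 co-occupied regions and 1 BRG1-alone peak. SOX9, a transcription factor of prostate epithelium, had 7 co-occupied regions and 4 BRG1-alone peaks. ACP3, which encodes prostatic acid phosphatase, had 5 of each. NFIA, a nuclear factor I gene, had 8 co-occupied regions, 5 BRG1-alone and 3 SMARCC2-alone peaks. KCNN2, a potassium channel gene of the androgen response list, had 4 SMARCC2-alone peaks against 3 BRG1-alone peaks. SLC45A3, a prostate transporter gene also known as prostein, had the opposite make-up, with 6 BRG1-alone peaks, 1 co-occupied region and 1 SMARCC2-alone peak.

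Peaks clustered to a different extent by class. A neighbour of the same list lay within 10 kb of 44.7% of co-occupied BRG1, 46.5% of BRG1-alone, 38.0% of co-occupied SMARCC2 and 30.5% of SMARCC2-alone peaks. Within the SMARCC2 list, alone peaks thus had a close neighbour less often than co-occupied peaks. Shares cannot be compared between the lists, since the BRG1 list is longer and a longer list brings neighbours closer.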
